A study of Homo sapiens with 4 samples.

Results

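The data are single-cell RNA counts of 10 genes used as markers of stem cells and tumour-initiating cells: CD44, CD24, PROM1, ALDH1A3, NOTCH1, MYC, KLF4, SOX9, ITGA6 and ABCG2. They were taken by symbol from the 37468 features counted, and all 10 were found in each of the 4 libraries. MSTO-211H is an established human mesothelioma line, labelled wild type and described by the submitters as mesothelioma-initiating cells. It was grown in suspension without serum, with EGF, bFGF, heparin and a neuronal supplement, in every group. Drug_Radiation cells received 10 µM QTP and 4 Gy, Drug cells received 10 µM QTP alone, Radiation cells received vehicle and 4 Gy, and Control cells received vehicle alone. Each group is 1 library of pooled, dissociated cells of 1 line, collected 48 h after irradiation, so no difference below has a replicate check and none was tested.

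CD44 is the cell-surface receptor for hyaluronan, and in several carcinomas cells with much CD44 and little CD24, a mucin-like surface protein, were found to start tumours on transfer. PROM1 encodes CD133, a membrane glycoprotein used to sort such cells, and ITGA6 is the integrin subunit that binds laminin. ALDH1A3 oxidises retinal to retinoic acid and gives much of the activity read by the ALDEFLUOR assay, while ABCG2 is an efflux pump that lets cells exclude dyes and drugs. NOTCH1 is a receptor whose cleaved inner part acts in the nucleus with RBPJ. MYC, KLF4 and SOX9 are transcription factors; MYC and KLF4 are among the factors that reprogram fibroblasts to pluripotent cells.

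Drug_Radiation held 6990 cells with a median of 18024.5 UMIs per cell, Drug 3802 cells with 20405, Radiation 2425 cells with 5299, and Control 3183 cells with 2318. A UMI is a tag that marks 1 captured RNA molecule. No cell barcode was shared between any of the libraries. Levels are given as counts per 1000000 nuclear-encoded UMIs of the library (CPM) and comparisons as the log2 ratio of CPM plus 1, both with 95% intervals that cover counting error only. A 3-prime kit counts transcript ends, so levels were not divided by gene length and are not ranked between genes. TMM and median-of-ratios are other scalings, which set library sizes from the ratios of most genes. Of 14 mesothelial markers 4 reached 20 CPM in every library (VIM, KRT8, KRT18 and CALB2), summing over the list to 8175, 7962, 10301 and 7611 CPM in Drug_Radiation, Drug, Radiation and Control. The defining markers MSLN (14.0, 13.2, 12.2 and 8.27 CPM) and WT1 (1.89, 1.86, 1.60 and 1.12 CPM) were low in the same order of libraries, and UPK3B was listed at 0 in Radiation and Control.

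CD44 and CD24 are printed here because the pair defines the classic surface phenotype and because their counts lie far apart in these cells. The 250 bases before the RefSeq start of each gene are on GRCh38.p14, chr11:35138921-35139170 on the plus strand for CD44 and chr6:106975628-106975877 on the minus strand for CD24, where RefSeq lists 3 starts. GENCODE places the start of CD44 at 35138870, so by that annotation the CD44 stretch lies inside the gene. Capitals mark the GC box GGGCGG or its reverse complement CCGCCC.
CD44 promoter: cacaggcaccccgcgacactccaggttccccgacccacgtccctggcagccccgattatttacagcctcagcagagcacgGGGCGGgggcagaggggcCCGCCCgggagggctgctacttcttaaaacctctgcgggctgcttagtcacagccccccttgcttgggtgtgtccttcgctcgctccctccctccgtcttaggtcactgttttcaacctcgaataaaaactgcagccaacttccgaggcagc
CD24 promoter: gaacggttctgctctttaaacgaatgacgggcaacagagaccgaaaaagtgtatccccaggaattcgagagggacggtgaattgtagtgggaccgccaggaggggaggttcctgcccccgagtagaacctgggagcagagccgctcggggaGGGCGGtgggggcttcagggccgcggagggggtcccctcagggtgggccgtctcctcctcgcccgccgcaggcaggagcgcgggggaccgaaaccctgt
The CD44 stretch holds 2 GC boxes at 62.4% G+C, and the CD24 stretch holds 1 at 65.6%. Of 35116 promoters of this length, 42.6% hold at least 1. Neither stretch holds CACGTG, which MYC with MAX can bind and which 6.34% of promoters hold, or TATAAA or its reverse complement, which 10.7% hold. Such matches describe letters only, and 8 of the 10 genes were in the promoter table.

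None of the markers reached a 2-fold difference in any of the 5 comparisons. A gene was counted only where it had at least 20 CPM in 1 of the compared libraries, and CD44, MYC, ALDH1A3, SOX9 and ITGA6 met that in each. The count was 0 of 5 for Radiation against Control, where 3.05% of 4818 genes passed. It was 0 of 5 for Drug_Radiation against Drug (0.395% of 5570 genes), 0 of 5 for Drug against Control (10.9% of 5546), 0 of 5 for Drug_Radiation against Radiation (2.75% of 5239) and 0 of 5 for Drug_Radiation against Control (7.78% of 5243). The background was 2.18% higher and 0.872% lower for Radiation against Control, 0.269% and 0.126% for Drug_Radiation against Drug, 8.6% and 2.34% for Drug against Control, 1.15% and 1.6% for Drug_Radiation against Radiation, and 5.36% and 2.42% for Drug_Radiation against Control. With 5 genes these counts are near it. The median log2 ratio of the 5 was -0.0044, -0.09, 0.37, 0.23 and 0.24 in those comparisons, beside 0.18, -0.18, 0.50, 0.13 and 0.33 over all genes counted. The comparisons share libraries, each of Drug_Radiation and Control being in 3 of them, and are not independent.

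**Figure D1:**
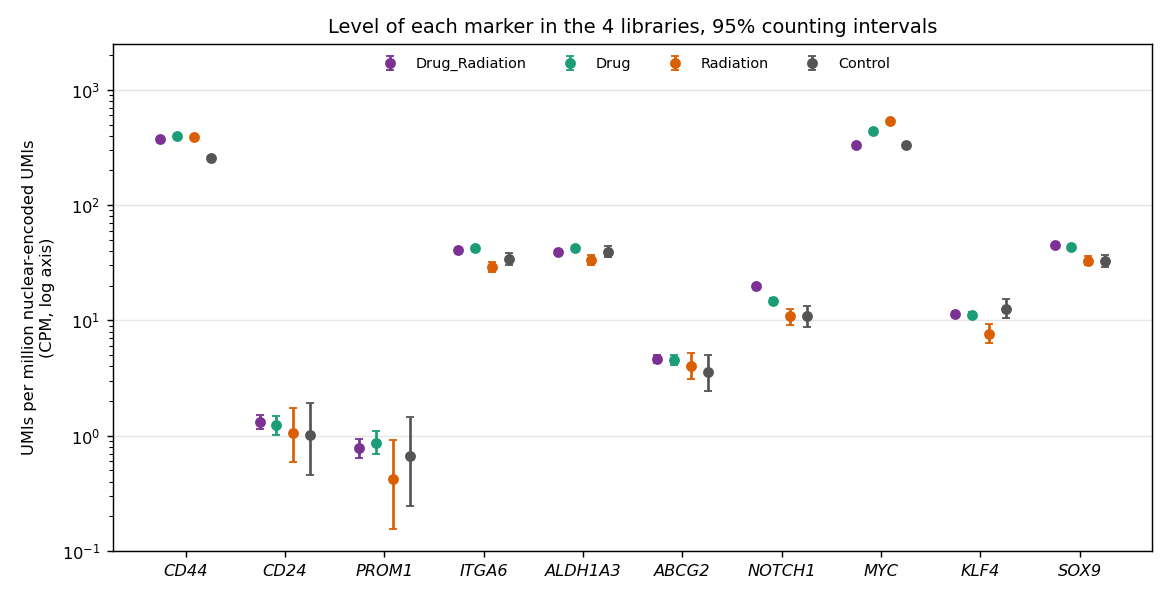
Level of each marker in the 4 libraries, as CPM of nuclear-encoded UMIs on a log axis; points are single libraries and bars are 95% Poisson counting intervals. CD44 and MYC lie between 258 and 541 CPM, ITGA6, ALDH1A3 and SOX9 between 29.03 and 45.2 CPM, and CD24 and PROM1 at or below 1.32 CPM.

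CD44 (ENSG00000026508, chr11:35138870-35232402, plus strand) stood at 372 CPM in Drug_Radiation, 396 in Drug, 394 in Radiation and 258 in Control. Control was the lowest library, and the other 3 lay close together. The log2 ratio was 0.60 for Radiation against Control (0.54 to 0.68), 0.61 for Drug against Control (0.56 to 0.68) and 0.52 for Drug_Radiation against Control (0.47 to 0.59). All genes had a median of 0.18, 0.50 and 0.33 in these comparisons, so relative to it CD44 stood 0.42, 0.11 and 0.20 higher. With QTP in both libraries, Drug_Radiation against Drug, its ratio was -0.09 (-0.11 to -0.07), above the all-gene median of -0.18, and it was 0.09 with TMM and 0.06 with median-of-ratios scaling.

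Within Control the CD44 level varied with the depth of the cells. It was 194 CPM (172 to 218) in the tercile of cells with the fewest UMIs, 224 (205 to 244) in the middle tercile and 293 (279 to 309) in the tercile with the most. In the other libraries the terciles ranged between 367 and 376 CPM in Drug_Radiation, 386 and 405 in Drug, and 374 and 410 in Radiation. In cells of 6500 to 15000 UMIs, CD44 was at 367, 402, 398 and 317 CPM in Drug_Radiation, Drug, Radiation and Control, the last from 173 cells. There the ratio was 0.33 for Radiation against Control, 0.34 for Drug against Control and 0.21 for Drug_Radiation against Control. The part of depth in the CD44 difference beyond that window was not tested. CD68, a lysosomal protein abundant in macrophages, also stood lowest in Control, with 39.3, 39.8, 41.4 and 16.2 CPM in Drug_Radiation, Drug, Radiation and Control. It made up nearly all of the summed level of the 12 leukocyte markers (40.0, 40.8, 42.1 and 16.9 CPM). The pan-leukocyte gene PTPRC was at or below 0.335 CPM in every library, and 7 of the 12 markers were at 0 in Radiation and in Control. The markers of endothelial, fibroblast and erythroid cells summed to at most 5.30, 53.0 and 3.41 CPM in any library, the fibroblast list led by LUM. Their part in the CD44 difference was not tested.

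CD24 (ENSG00000272398, chr6:106969831-106975627, minus strand) was near the floor in every library, at 1.32, 1.24, 1.05 and 1.01 CPM in Drug_Radiation, Drug, Radiation and Control, from 187, 108, 15 and 9 UMIs. Its ratios lay between 0.03 and 0.21 over the 5 comparisons, each with an interval that spanned 0. RefSeq lists 5 copies of CD24 as pseudogenes (CD24P1 to CD24P5), none of which was counted here, so these counts are uncertain. The UMIs of CD24 were uneven over cells: 1 Drug_Radiation cell held 20 and 1 Drug cell held 10, and the 5 cells with the most held 24.6% and 36.1% of the CD24 UMIs of those libraries. PROM1 showed no such cells, with at most 2 UMIs in any cell.

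Cells with a CD44 UMI and no CD24 UMI made up 96.1%, 96.2%, 79.1% and 41.6% of cells in Drug_Radiation, Drug, Radiation and Control, in the order of depth rather than of CD44 level. Of the cells with CD24, 104 of 104, 62 of 62, 13 of 14 and 7 of 9 also held CD44. Cells with CD24 were the deeper ones, with a median of 26863, 32720, 7409.5 and 5956 UMIs, against 18024.5, 20405, 5299 and 2318 over all cells of Drug_Radiation, Drug, Radiation and Control. In Drug_Radiation and Drug, CD44 was found in 97.6% and 97.9% of all cells, so this overlap was nearly fixed beforehand. In Radiation and Control no cell held more than 2 CD24 UMIs, too few to look for a population with CD24 and without CD44.

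PROM1 (ENSG00000007062, chr4:15963076-16084378, minus strand) was at 0.777, 0.872, 0.419 and 0.671 CPM in Drug_Radiation, Drug, Radiation and Control, from 110, 76, 6 and 6 UMIs. A difference between libraries was not detectable at this depth: the ratio of Radiation against Control was -0.24, with an interval of -2.58 to 1.22. CD133 protein was not measured.

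ITGA6 (ENSG00000091409, chr2:172427354-172506282, plus strand) was at 40.5 CPM in Drug_Radiation, 42.6 in Drug, 29.03 in Radiation and 34.1 in Control. The libraries with QTP were the higher ones, and Radiation was the lowest. The ratio was 0.47 for Drug_Radiation against Radiation (0.34 to 0.63), where all genes had a median of 0.13, and 0.31 for Drug against Control (0.15 to 0.50), where they had 0.50. With TMM and median-of-ratios scaling the Drug against Control ratio was -0.07 and -0.10. In cells of 6500 to 15000 UMIs the Drug against Control ratio was 1.25 (0.76 to 1.87), past 2-fold, from 52.8 and 21.6 CPM in Drug and Control, with 547 and 30 UMIs. In the same cells the Radiation against Control ratio was 0.46, against -0.22 over all cells, so its sign depended on the cells counted.

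Of 20 laminin-binding integrins and laminins, 14 were counted in Drug_Radiation against Control, with a median of 0.61 beside 0.33 for all genes. There 3 rose and 0 fell, where 5.36% of all genes counted were higher and 2.42% lower: LAMB2, a laminin beta chain (25.0 against 9.72 CPM), ITGA3, another laminin-binding alpha subunit (91.3 against 39.9 CPM), and LAMA1, a laminin alpha chain (22.7 against 9.72 CPM). In Drug against Control 3 of 13 rose and 0 fell (8.6% and 2.34% of all genes), namely LAMB2 (25.0 against 9.72 CPM), ITGA3 (83.4 against 39.9 CPM) and CD151 (309 against 144 CPM), a tetraspanin that associates with these integrins. With TMM scaling the log2 ratios of these genes were 0.65 to 0.90 in Drug against Control, under 2-fold, and in Drug_Radiation against Control LAMB2 alone remained past it, at 1.08. In cells of 6500 to 15000 UMIs, with 173 Control cells, the CD151 ratio was 0.29. LAMB2 (1.23) and ITGA3 (1.29) stayed past 2-fold there in Drug against Control. So did LAMB2 (1.22), ITGA3 (1.19) and LAMA1 (1.26) in Drug_Radiation against Control. In Radiation against Control, Drug_Radiation against Drug and Drug_Radiation against Radiation, 0 of 11, 0 of 14 and 0 of 14 passed 2-fold in either direction. ITGB1, the beta subunit that pairs with ITGA6, was at 372, 386, 371 and 255 CPM in Drug_Radiation, Drug, Radiation and Control, with Control the lowest. ITGB4, its partner in hemidesmosomes, was at 34.8, 46.7, 33.4 and 23.4 CPM in the same libraries.

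**Figure D2:**
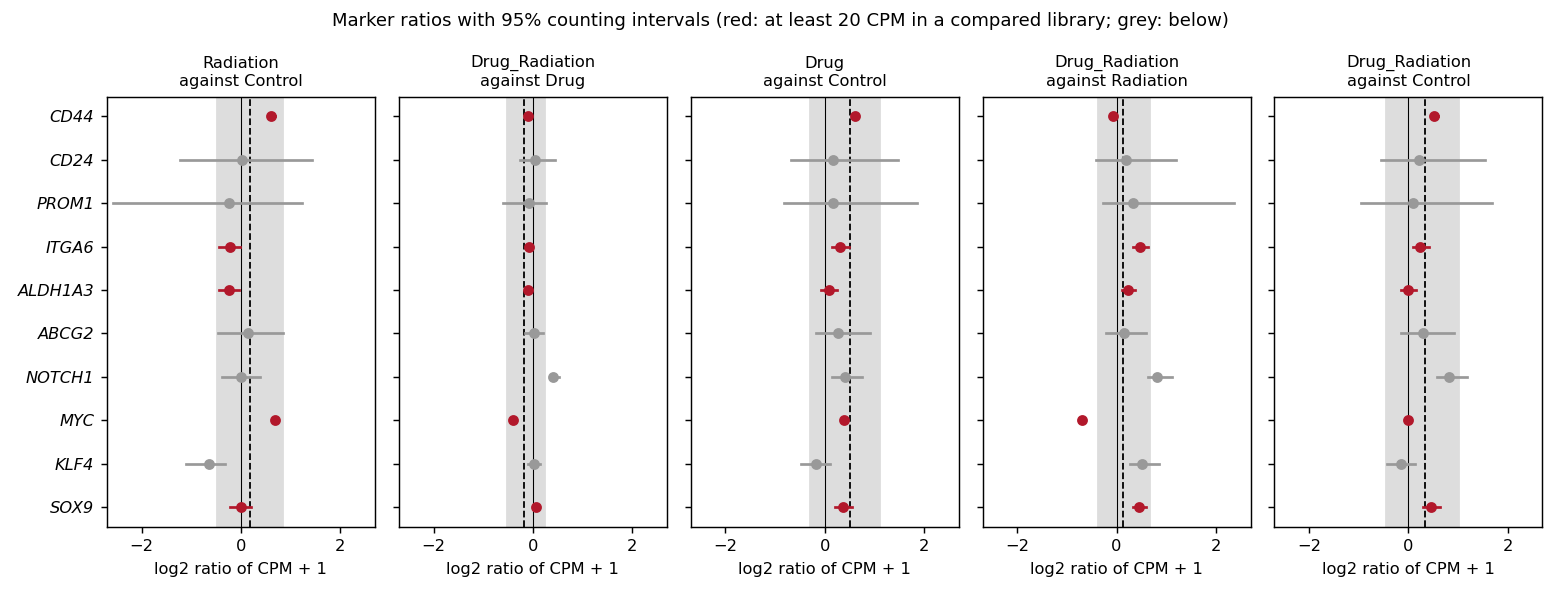
Log2 ratio of CPM plus 1 for the 10 markers in the 5 comparisons, with 95% counting intervals; red points had at least 20 CPM in a compared library, grey points did not. The dashed line is the median and the grey band the 5th to 95th percentile of all genes counted; MYC lies below the band in Drug_Radiation against Radiation, at -0.69, and every red point is within 1 of 0.

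ALDH1A3 (ENSG00000184254, chr15:100877714-100916626, plus strand) was at 39.4, 42.1, 33.4 and 39.5 CPM in Drug_Radiation, Drug, Radiation and Control, the narrowest relative range of the 5 genes counted in each comparison. Radiation was the lowest library: its ratio against Control was -0.23 (-0.44 to -0.04), and -0.58 (-0.98 to -0.19) in cells of 6500 to 15000 UMIs. The ratio of Drug_Radiation against Control was -0.0029 (-0.16 to 0.16) and that of Drug against Control 0.09 (-0.07 to 0.25). In cells of 6500 to 15000 UMIs they were -0.53 (-0.89 to -0.17) and -0.44 (-0.82 to -0.07), so that among these cells Control, with 72 UMIs, was the highest library. The Drug against Control ratio was also below 0 with TMM or median-of-ratios scaling. The other retinal dehydrogenases in the list were low, with ALDH1A1 at or below 0.459 CPM and ALDH1A2 at or below 0.894 CPM in every library. Of 20 genes of retinoid metabolism 4 were counted in each comparison, and 0 passed 2-fold in any. The nearest was TGM2, a transglutaminase that retinoic acid can induce, at 523, 407, 488 and 263 CPM in Drug_Radiation, Drug, Radiation and Control.

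ALDH1A3 was lower in cells called dividing than in the others of the same library, with an interval apart from 0 in Drug and Drug_Radiation only. Cells with at least 1% of their UMIs from a list of S or of G2 and M phase genes were called dividing, which gave 29, 83, 19 and 41 cells (0.415%, 2.18%, 0.784% and 1.29%) in Drug_Radiation, Drug, Radiation and Control. In Drug the 83 dividing cells had 14.9 CPM of ALDH1A3 and the others 42.8 CPM, a log2 ratio of -1.46 (-2.05 to -1.03). In Drug_Radiation the 29 dividing cells had 12.1 CPM and the others 39.5 CPM, a ratio of -1.63 (-3.02 to -0.66). Radiation and Control pointed the same way from 1 and 3 UMIs in dividing cells, with intervals that spanned 0. The cells of a library are not replicates, and these intervals leave out the spread between cells. Median UMIs were 20509, 28550, 8005 and 3369 in dividing cells of Drug_Radiation, Drug, Radiation and Control. In the others they were 17961, 20306, 5292 and 2304, and the part of depth in these ratios was not tested. The others are only cells under the 1% limit, and their phase was not determined.

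Of the other markers MYC, SOX9 and CD44 had an interval apart from 0 in at least 1 library. MYC was at 202 CPM in dividing cells and 334 in others of Drug_Radiation (log2 ratio -0.72, -1 to -0.46), and at 370 and 543 CPM in Radiation (-0.55, -0.97 to -0.16). In Drug and Control the MYC ratio was -0.15 and -0.37. SOX9 was higher in dividing cells of Drug_Radiation, at 76.0 against 45.1 CPM (0.74, 0.29 to 1.18), but its ratio was 0.16 in Drug and its interval there spanned 0. For CD44 the ratio was -0.14, -0.16 and -0.47 in Drug_Radiation, Drug and Radiation, and 0.50 in Control, where it had the opposite sign. For NOTCH1, KLF4, ITGA6, ABCG2, CD24 and PROM1 the interval spanned 0 or had no lower bound in each of the 4 libraries, with ABCG2 at 0, 5, 0 and 0 UMIs in dividing cells of Drug_Radiation, Drug, Radiation and Control, so a difference was not detectable for them at this depth.

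ABCG2 (ENSG00000118777, chr4:88090264-88231322, minus strand) was at 4.597, 4.52, 4.05 and 3.58 CPM in Drug_Radiation, Drug, Radiation and Control, from 651, 394, 58 and 32 UMIs. Its counting intervals overlapped between all 4 libraries, and its ratios lay between 0.02 and 0.29. The interval of Drug_Radiation against Drug, the best counted comparison, was -0.16 to 0.21. Of 12 drug efflux transporters at most 3 reached 20 CPM in any comparison and 0 passed 2-fold. ABCC1, which exports glutathione conjugates, was at 23.7, 24.6, 15.4 and 16.4 CPM in Drug_Radiation, Drug, Radiation and Control. ABCB1, which encodes P-glycoprotein, was at or below 1.83 CPM in every library.

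NOTCH1 (ENSG00000148400, chr9:136494433-136545786, minus strand) was highest in Drug_Radiation, at 19.8 CPM (19.1 to 20.6), then 14.7 in Drug (13.9 to 15.5), 10.8 in Radiation (9.18 to 12.7) and 10.8 in Control (8.79 to 13.2). The libraries with QTP lay above those without, and their intervals did not overlap with them. The log2 ratio was 0.82 for Drug_Radiation against Radiation (0.64 to 1.12), 0.82 for Drug_Radiation against Control (0.58 to 1.18), 0.41 for Drug against Control (0.14 to 0.75) and -0.0031 for Radiation against Control. The all-gene medians there were 0.13, 0.33, 0.50 and 0.18, so the Drug against Control ratio of NOTCH1 lay below its median. Over the 13 settings that ratio ran from 0.014 to 1.08. NOTCH1 stayed under 20 CPM in every library, so it is not among the genes counted.

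The NOTCH1 difference between Drug_Radiation and Drug depended on which cells were counted. The whole libraries gave a ratio of 0.41 (0.34 to 0.53), and cells of 6500 to 15000 UMIs gave -0.09 (-0.31 to 0.13), with 21.1 and 22.5 CPM. In Drug, NOTCH1 was at 20.6 CPM in the tercile of cells with the fewest UMIs and at 13.1 and 13.8 CPM in the middle and upper terciles; in Drug_Radiation the terciles had 21.7, 19.1 and 19.7 CPM. Its ratio against the libraries without QTP kept its sign in that window, with 0.86 for Drug_Radiation against Radiation, 0.99 for Drug_Radiation against Control and 1.08 for Drug against Control, where NOTCH1 passed 2-fold (22.5 CPM in Drug against 10.1 CPM in Control, from 233 and 14 UMIs).

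Among 32 Notch pathway genes, NCSTN, APH1A and ADAM17 passed 2-fold in at least 1 comparison. NCSTN, a gamma-secretase subunit, rose in Radiation (59.5 against 26.4 CPM in Control), in Drug (64.8 against 26.4) and in Drug_Radiation (67.5 against 26.4). APH1A, another subunit, rose in Radiation against Control (149 against 73.6 CPM), and ADAM17, which sheds the outer part of many membrane proteins, rose in Drug against Control (46.9 against 22.7 CPM). That made 2 of 10 counted genes in Radiation against Control, 2 of 12 in Drug against Control and 1 of 11 in Drug_Radiation against Control, with 0 lower in each, where 2.18%, 8.6% and 5.36% of all genes counted were higher. Other genes that act in the cleavage did not pass: ADAM10, a sheddase, had ratios of 0.04 in Radiation and 0.43 in Drug against Control, and PSENEN, a gamma-secretase subunit, 0.39 in Drug and 0.21 in Drug_Radiation against Control. In Drug_Radiation against Drug and Drug_Radiation against Radiation, 0 of 12 and 0 of 11 passed. With TMM scaling APH1A (0.93), ADAM17 (0.63) and NCSTN in Drug against Control (0.88) were under 2-fold. In cells of 6500 to 15000 UMIs the NCSTN ratios were 0.81 for Radiation, 0.41 for Drug and 0.66 for Drug_Radiation against Control. In the same cells APH1A was at 0.47, and ADAM17 stayed past 2-fold in Drug against Control, at 1.48. HES1, a direct Notch target, was at 46.3, 37.8, 29.2 and 25.8 CPM in Drug_Radiation, Drug, Radiation and Control. It was highest in Drug_Radiation, without a 2-fold difference between any compared pair. NRARP of the same list was highest in Control instead, at 3.38, 3.22, 2.44 and 3.91 CPM in those libraries. HEY1, another target, was at or below 0.224 CPM in every library. NOTCH2 was at 80.3, 79.1, 64.2 and 56.3 CPM, and the ligand JAG1 at 7.69, 7.34, 4.61 and 4.47 CPM, in Drug_Radiation, Drug, Radiation and Control.

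MYC (ENSG00000136997, chr8:127735434-127741434, plus strand) was at 334 CPM in Drug_Radiation, 442 in Drug, 541 in Radiation and 335 in Control. Radiation was the highest of the 4, and with QTP the irradiated library was the lower one. The log2 ratio was 0.69 for Radiation against Control (0.63 to 0.75) and -0.40 for Drug_Radiation against Drug (-0.42 to -0.39), beside all-gene medians of 0.18 and -0.18. MYC stood higher than 90.4% of counted genes in the first and higher than 13.3% in the second. In Drug_Radiation against Radiation its ratio was -0.69 (-0.73 to -0.66), higher than only 1.95% of the genes counted. The sign of all 3 ratios was the same in each of 13 settings of filter, scaling and depth. Drug against Control gave 0.40 (0.34 to 0.45), which was under the all-gene median of 0.50 and changed sign with TMM or median-of-ratios scaling.

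The 2 radiation ratios had opposite signs for both MYC and CD44, for CD44 with CPM but not with TMM (0.09) or median-of-ratios (0.06) scaling of Drug_Radiation against Drug. Subtracting the ratio without QTP from that with QTP gave -1.09 for MYC (-1.16 to -1.03) and -0.69 for CD44 (-0.77 to -0.62). Over 3988 genes with at least 20 CPM in every library, this difference had a median of -0.39 and a 5th to 95th percentile range of -0.97 to 0.43, so MYC lay below that range and CD44 inside it. KLF4 gave 0.68 (0.28 to 1.07) and NOTCH1 0.41 (0.04 to 0.79), and the intervals of the other 6 spanned 0. With 1 library per group the difference itself could not be tested.

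The MYC level was also lower in shallow Control cells, with 244, 323 and 367 CPM in the terciles of cells with the fewest, middle and most UMIs. In Radiation the terciles had 509, 564 and 539 CPM, each above every tercile of Control, and in cells of 6500 to 15000 UMIs the ratio of Radiation against Control was 0.54. Genes of G2 and M phase summed to 842, 1407, 951 and 1308 CPM in Drug_Radiation, Drug, Radiation and Control, lower in both irradiated libraries, and genes of S phase to 693, 870, 748 and 763 CPM. Their part in the MYC difference was not tested.

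**Figure D3:**
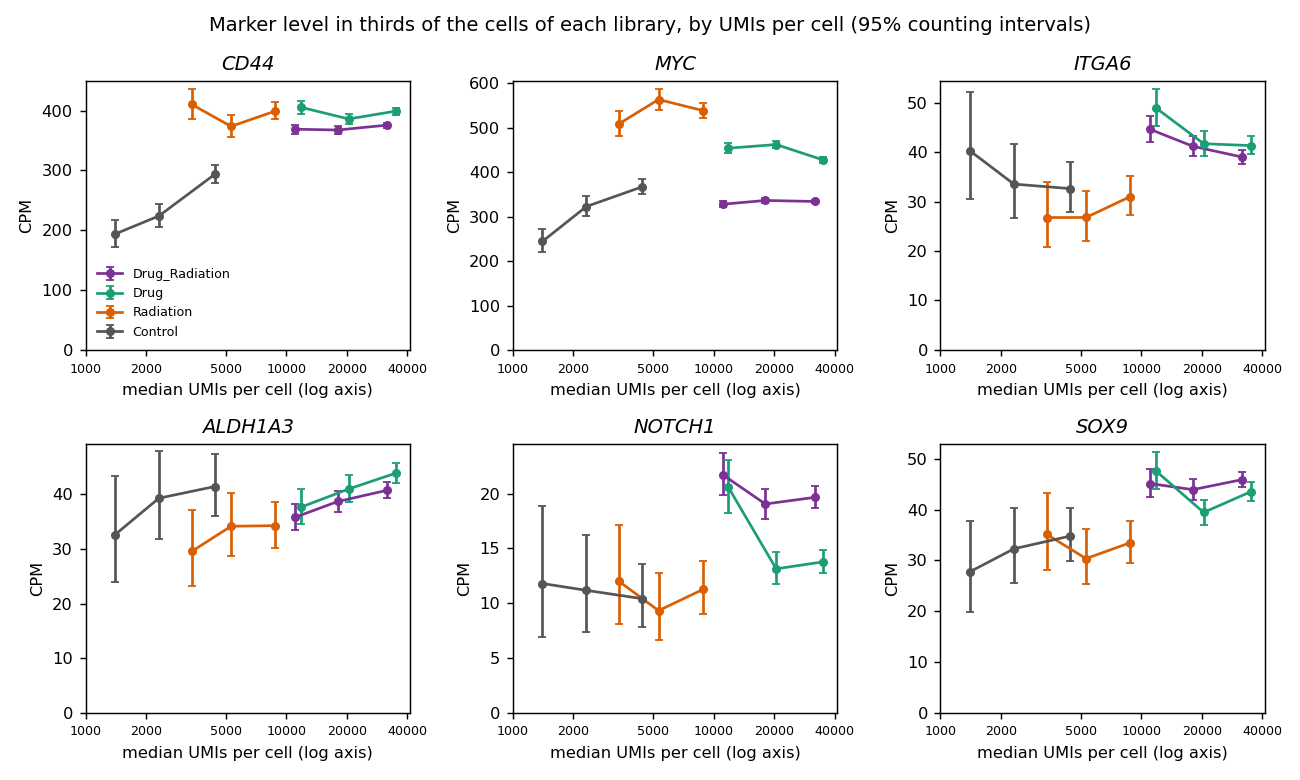
Level of 6 markers in CPM, in terciles of the cells of each library ordered by UMIs per cell, against the median UMIs of that tercile on a log axis; bars are 95% Poisson counting intervals. In Control, CD44 runs over 194, 224 and 293 CPM and MYC over 244, 323 and 367 CPM with depth, and in Drug, NOTCH1 is at 20.6 CPM in the shallowest tercile and 13.1 and 13.8 CPM in the others.

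MYC was spread over cells more unevenly than CD44. In cells of at least 5000 UMIs, each thinned to 5000, the variance of MYC divided by its mean was 1.88, 3.48, 4.24 and 3.51 in Drug_Radiation, Drug, Radiation and Control, against 1.23, 1.34, 1.41 and 1.17 for CD44. A ratio of 1 is what random sampling of equal cells gives. Without the 1% of cells with the most MYC it was 1.35, 1.83, 2.30 and 1.56. The highest cell held 31, 63, 45 and 31 MYC UMIs, where the median cell held 1, 2, 2 and 1.

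Cells with at least 10 MYC UMIs per 5000, a limit chosen after the values were seen, were 17 of 6990 in Drug_Radiation (0.243%, 0.142 to 0.389), 51 of 3802 in Drug (1.34%, 1 to 1.76), 41 of 1353 in Radiation (3.03%, 2.18 to 4.09) and 3 of 394 in Control (0.761%, 0.157 to 2.21). A limit of 9 gives 38, 75, 61 and 5 cells (0.544%, 1.97%, 4.51% and 1.27%), so the shares depend on the limit. Cells at the limit of 10 held 2.49%, 10.4%, 17.6% and 9.28% of the MYC UMIs of those cells. Without them the mean was 1.54, 1.94, 2.28 and 1.80 MYC UMIs per 5000 in Drug_Radiation, Drug, Radiation and Control, the same order as with them (1.57, 2.14, 2.69 and 1.97). Only 55.8% of Radiation cells and 12.4% of Control cells were deep enough to enter.

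The cells with much MYC also held more UMIs of some other genes, which were picked because they differed. HES1 averaged 1.29 UMIs per 5000 in these cells and 0.228 in the others of Drug_Radiation, 0.980 and 0.175 in Drug, 1.76 and 0.104 in Radiation, and 8 and 0.0742 in Control, the last from 3 cells. HES1 was found in 58.8%, 25.5%, 22.0% and 66.7% of the cells with much MYC, against 16.7%, 12.6%, 9.07% and 6.91% of the others, in Drug_Radiation, Drug, Radiation and Control, so that in Drug and Radiation a minority of the cells carried the mean. PVT1, a long non-coding RNA gene beside MYC, averaged 12.5 and 6.85 in Drug_Radiation, 13.7 and 5.90 in Drug, 11.4 and 5.63 in Radiation, and 7.67 and 6.36 in Control. GADD45B, a gene induced by stress signals, averaged 0.805 and 0.110 in Radiation. Across cells the correlation of HES1 with MYC was 0.07, 0.28, 0.23 and 0.52 in Drug_Radiation, Drug, Radiation and Control, and 0.07, 0.17, 0.25 and 0.54 without the cell with the most MYC. That of FOS with MYC in Drug was 0.34 with that cell and 0.03 without it. CD44 averaged 1.76 and 1.76 UMIs in Drug_Radiation, 1.71 and 1.88 in Drug, 1.98 and 1.86 in Radiation, and 2 and 1.59 in Control, in cells with much MYC and in the others. KLF4 averaged 0.294 and 0.0523 in Drug_Radiation, 0.118 and 0.0616 in Drug, 0.0732 and 0.0320 in Radiation, and 0 and 0.0588 in Control, from 5, 6, 3 and 0 UMIs in cells with much MYC.

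**Figure D4:**
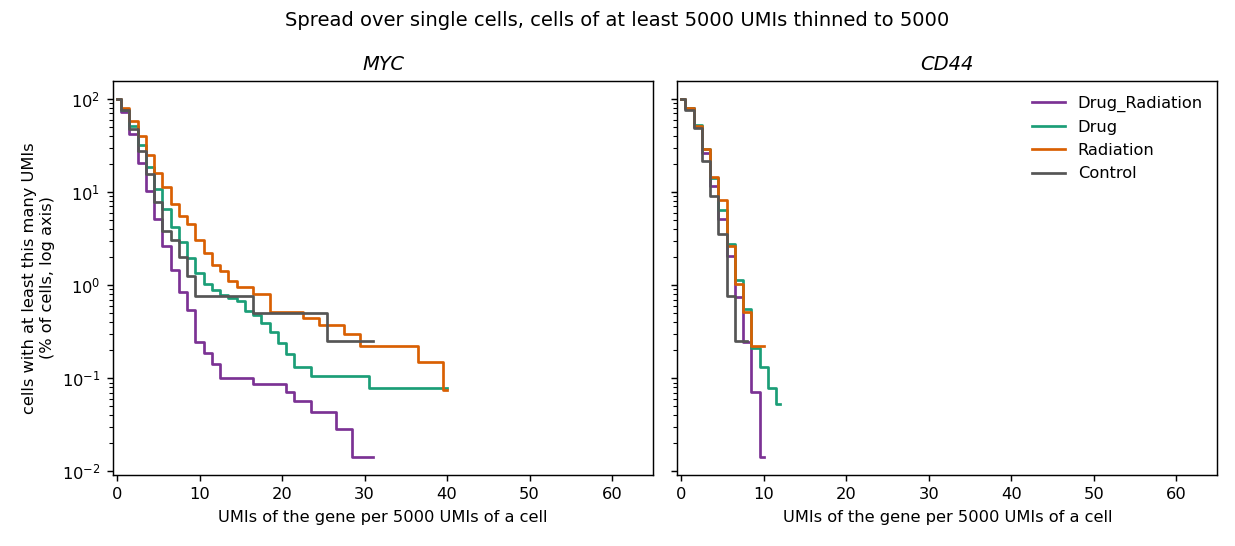
Percentage of cells, on a log axis, with at least a given number of MYC (left) or CD44 (right) UMIs, in cells of at least 5000 UMIs thinned to 5000. The curves are drawn up to 40 UMIs, so the highest MYC cells, with 63 UMIs in Drug and 45 in Radiation, lie beyond them. No cell holds more than 12 CD44 UMIs.

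Of 38 genes of the MYC network and its targets 37 were in the files, and 26 to 28 were counted per comparison. In Radiation against Control 1 rose and 1 fell: PES1, which acts in ribosome assembly (84.0 against 41.5 CPM), and FBL, the nucleolar RNA methyltransferase fibrillarin (59.9 against 133 CPM). In Drug against Control 2 rose and 0 fell, MXD3, a MAX partner that opposes MYC (55.5 against 14.1 CPM), and NOP2, a nucleolar RNA methyltransferase (42.1 against 17.5 CPM). MXD3 was also the 1 gene that rose in Drug_Radiation against Radiation (49.3 against 21.1 CPM) and in Drug_Radiation against Control (49.3 against 14.1 CPM). In the order named, these counts were 1 of 26, 2 of 27, 1 of 28 and 1 of 28 higher. Of all genes counted 2.18%, 8.6%, 1.15% and 5.36% were higher there, and 0.872% were lower in Radiation against Control. In Drug and in Drug_Radiation against Control the count did not exceed that share. With TMM scaling FBL (-1.23) and MXD3 (1.06 to 1.53) stayed past 2-fold, and PES1 (0.92) and NOP2 (0.83) did not. With median-of-ratios scaling MXD3 was at 0.99 in Drug_Radiation against Radiation. In cells of 6500 to 15000 UMIs PES1 was at 0.41 and NOP2 at 0.40, and FBL (-1.17) and MXD3 (1.15 to 1.33) stayed past 2-fold. In Drug_Radiation against Drug 0 of 28 passed 2-fold, with a median of -0.17 beside -0.18 for all genes. MAX, the partner through which MYC binds DNA, was at 76.4, 90.7, 65.2 and 47.3 CPM in Drug_Radiation, Drug, Radiation and Control.

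KLF4 (ENSG00000136826, chr9:107484852-107490482, minus strand) was at 11.3, 11.1, 7.68 and 12.6 CPM in Drug_Radiation, Drug, Radiation and Control, with Radiation the lowest. Its ratio was -0.65 for Radiation against Control (-1.11 to -0.33), lower than all but 2.82% of the genes counted, from 110 and 113 UMIs. Drug_Radiation against Radiation gave 0.51 (0.28 to 0.85), and Drug_Radiation against Drug gave 0.02 with an interval that spanned 0. KLF4 did not reach 20 CPM in any library.

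SOX9 (ENSG00000125398, chr17:72121020-72126420, plus strand) was at 45.2, 43.0, 32.9 and 33.0 CPM in Drug_Radiation, Drug, Radiation and Control. The libraries with QTP were higher than those without: 0.45 for Drug_Radiation against Radiation (0.33 to 0.60) and 0.37 for Drug against Control (0.21 to 0.56). The first was above the all-gene median of 0.13 and the second below that of 0.50, and the second changed sign with TMM or median-of-ratios scaling. Radiation against Control gave -0.0044 (-0.22 to 0.21). Of 23 SOX and KLF genes 5 were counted in each comparison. SOX4, a SOX factor of progenitor cells, rose in Drug against Control (68.0 against 28.2 CPM) and in Drug_Radiation against Control (68.2 against 28.2 CPM), and 0 of 5 passed in the other 3 comparisons. Its ratio was 0.85 in the first with TMM scaling, under 2-fold, and in the second 1.04 with TMM and 0.98 with median-of-ratios scaling. SOX4 was thus 1 of 5 genes counted in Drug and in Drug_Radiation against Control, where 8.6% and 5.36% of all genes counted were higher.

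Among 17 pluripotency and reprogramming factors, MYC and KLF4 aside, only KLF5 reached 20 CPM, at 32.3, 35.6, 27.1 and 31.7 CPM in Drug_Radiation, Drug, Radiation and Control. The core factors were near the floor: POU5F1 at or below 0.112 CPM, NANOG at or below 0.224 CPM, and SOX2 at 0.0353 CPM in Drug_Radiation and listed at 0 in the other 3 libraries. In a list of 33 other markers of tumour-initiating cells, 14 to 16 were counted per comparison. CD151 was the 1 gene to rise in Drug against Control (309 against 144 CPM) and MET, the receptor of hepatocyte growth factor, the 1 to rise in Drug_Radiation against Radiation (53.9 against 25.3 CPM), with 0 falling in any comparison. With TMM scaling their ratios were 0.70 and 0.93, under 2-fold. In cells of 6500 to 15000 UMIs that of CD151 was 0.29 and that of MET 1.18. CD151 was 1 of 16 and MET 1 of 15 genes counted, where 8.6% and 1.15% of all genes counted were higher. UCHL1, a deubiquitinating enzyme of neurons and some tumours, was at 827, 846, 697 and 733 CPM in Drug_Radiation, Drug, Radiation and Control. THY1, a surface marker of mesenchymal cells, was at 51.6, 62.4, 54.2 and 32.4 CPM. Of 20 genes that bind CD44 or handle hyaluronan 3 were counted, the linkers EZR, MSN and RDX. EZR rose in Drug against Control (31.0 against 12.7 CPM), 1 of 3 where 8.6% of all genes counted were higher. Its ratio of 1.22 was 0.84 with TMM scaling and 1.21 in cells of 6500 to 15000 UMIs. In the other 4 comparisons 0 passed.

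Shares of cells with a marker follow depth, so each cell was thinned to 1000 UMIs. CD44 was then found in 29.6%, 30.6%, 30.4% and 20.1% of cells in Drug_Radiation, Drug, Radiation and Control, and without thinning in 97.6%, 97.9%, 79.6% and 41.8%. MYC was found in 24.9%, 31.4%, 36.0% and 23.3% of thinned cells, and in 94.7%, 95.7%, 80.0% and 46.2% without thinning. Control had the lowest share for CD44, and Radiation the highest for MYC, as for the CPM of these genes. SOX9 was found in 4.48%, 3.89%, 3.30% and 2.77% of thinned cells, and NOTCH1 in 2.03%, 1.60%, 1.15% and 1.04%. The sample holds 1 line, so no cell type that lacks these genes gives the share that free RNA would produce.

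**Figure D5:**
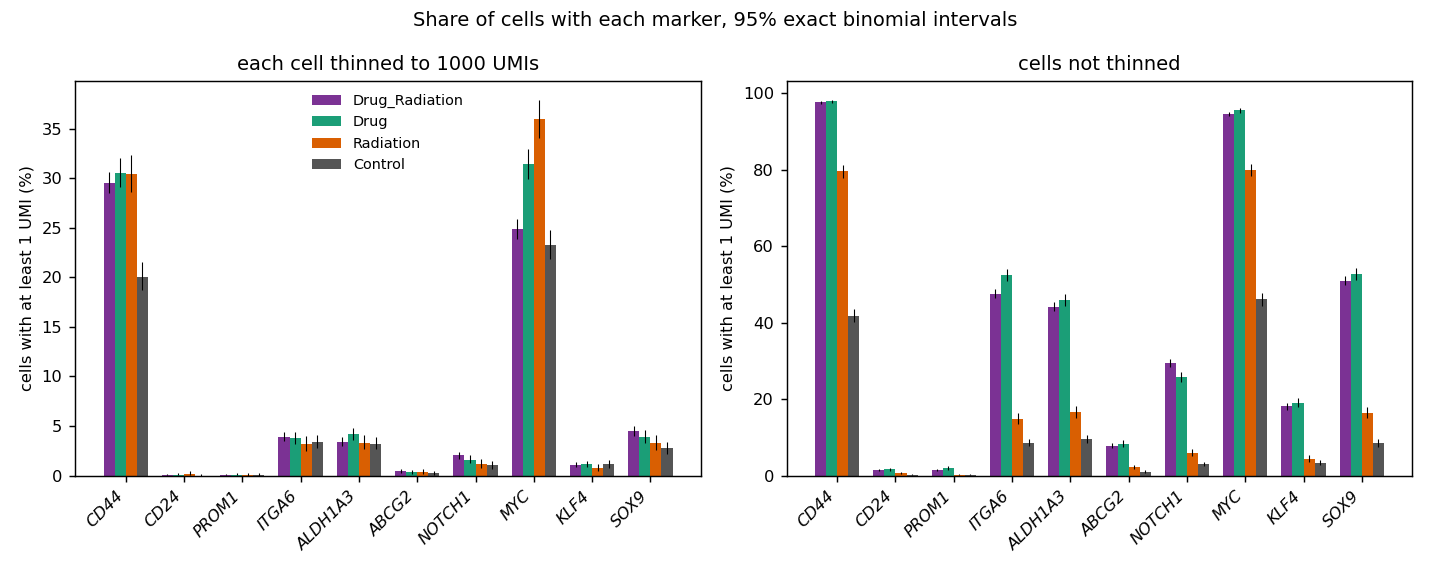
Percentage of cells with at least 1 UMI of each marker, with each cell thinned to 1000 UMIs (left) and without thinning (right; the axes differ); bars are single libraries with exact 95% binomial intervals. Thinned, CD44 is found in 20.1% of Control cells and at least 29.6% of cells in the other libraries, and MYC in at most 36.0% of cells.

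At least 1 of the 10 markers was found in 53.9%, 58.7%, 60.3% and 44.8% of thinned cells of Drug_Radiation, Drug, Radiation and Control. In cells of at least 5000 UMIs thinned to 5000, a cell held on average 2.19 ± 1.02, 2.27 ± 1.02, 2.13 ± 0.936 and 2.14 ± 0.996 of the 10 markers (SD over cells), and at most 7. Cells with both markers of a pair were set beside the number that their separate shares would give. Over pairs expected in at least 20 such cells, the ratio of observed to expected cells had a median of 1.04, 1.04, 1.04 and 1.02 in Drug_Radiation, Drug, Radiation and Control. It was above 1 for 23 of 27, 17 of 22, 11 of 16 and 4 of 7 pairs. Many pairs hold CD44 or MYC, each found in at least 72.3% of these cells, so their ratio could not rise far above 1. CD44 and MYC were together in 4102 cells of Drug_Radiation where 4034 were expected. The highest ratio was that of NOTCH1 with SOX9 in Drug_Radiation, 141 cells where 107 were expected. In Drug the same pair was found in 68 cells where 56.2 were expected. The lowest was that of ITGA6 with ABCG2 in Drug_Radiation, 13 cells where 21.2 were expected. Correlations across cells between the same pairs lay between -0.05 and 0.11 in the 4 libraries, too weak in sparse counts to describe a shared pattern; pairs expected in fewer cells rest on single cells and are not described.

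The genes whose levels over the 4 libraries lay closest to each marker were taken from 3987 genes with at least 20 CPM in every library. The measure was the largest difference between their log2 profiles after each was centred on its mean. CD44 was most like BABAM1, TMEM9 and BBS2, with BABAM1 at 92.2, 97.7, 97.5 and 63.7 CPM in Drug_Radiation, Drug, Radiation and Control. MYC was most like STT3A, HNRNPF and HNRNPA2B1, with HNRNPA2B1 at 311, 398, 457 and 283 CPM in the same libraries. SOX9 was most like EI24, CTNNB1 and CPD, ITGA6 like TWSG1, ATP5MC3 and CAPN2, and ALDH1A3 like STARD13, TBCA and REX1BD. With 4 points this is a description only.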

How the data were processed

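Single-cell RNA was counted in 4 libraries. The values used are raw UMI counts of each gene in each barcode, as deposited by the authors. The protocols in the labels describe a PIPseq V T2 3-prime kit and the sample descriptions 10x Genomics, so which was used is open. Tools and builds named in the submitters' processing notes are Seurat 4.3.3 and hg38, without a role for either. No aligner, annotation, counted strand or barcode caller is named there (not given in the sources used here). Deposited barcodes held no fewer than 6244, 6427, 1592 and 1009 UMIs in Drug_Radiation, Drug, Radiation and Control, so they had been filtered earlier at limits that differ.

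Cells with at least 500 UMIs, 300 genes and under 20% mitochondrial UMIs were kept: 6990 of 7006 barcodes in Drug_Radiation, 3802 of 3806 in Drug, 2425 of 2428 in Radiation and 3183 of 3184 in Control. No doublet caller was run and no doublets were removed. UMIs were summed over cells and scaled to the nuclear-encoded total (CPM). Library totals were 149368293, 90903552, 14859709 and 9249567 UMIs, in the same order. With 1 library per group no test was made; a gene was called where the log2 ratio of CPM plus 1 was at least 1 either way and the gene had at least 20 CPM in a compared library. Intervals at 95% are exact Poisson (CPM), exact conditional binomial (ratios, leaving out the added 1 CPM) and exact Clopper-Pearson (shares), for counting error only. Intervals of the difference of radiation ratios use the normal approximation to counting error. Gene positions are from GENCODE on GRCh38, and promoters from RefSeq. The ratio script was tested on simulated data. Python 3.11.15, NumPy 2.4.6, SciPy 1.17.1, pandas 2.3.3 and matplotlib 3.10.9 were used, and in R 4.3.3, edgeR 4.0.16 and DESeq2 1.42.0 for scaling factors only.

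The named genes are all 10 markers, up to the 2 highest and 2 lowest ratios of each list per comparison, and the 3 genes most like each marker. Genes outside this rule (such as MSLN, WT1, PTPRC, NOTCH2, JAG1, HEY1, NRARP, MAX, ABCB1, ALDH1A1, ALDH1A2, HES1, PVT1, GADD45B, FOS, SOX2, NANOG, POU5F1 and UPK3B) were chosen after their values were seen. The markers and the 16 gene lists were chosen with earlier results of these data known.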

Additional observations from a re-analysis of the deposited data

Results flagged for a closer look

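For MYC and CD44 the radiation ratio had opposite signs with and without QTP, which drew attention to them although each group is 1 library and the difference was not tested. The MYC ratio was -0.40 for Drug_Radiation against Drug and 0.69 for Radiation against Control, a difference of -1.09. The CD44 ratio was -0.09 for Drug_Radiation against Drug and 0.60 for Radiation against Control, a difference of -0.69. With TMM or median-of-ratios scaling the CD44 ratio of Drug_Radiation against Drug was above 0, reaching 0.09, so for CD44 the signs were then no longer opposite. The MYC ratio of Drug_Radiation against Drug lay between -0.49 and -0.22 over the 13 settings.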

How the results depend on the processing

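In Drug against Control the number of markers past 2-fold was 0, and 2 in cells of 6500 to 15000 UMIs (NOTCH1 and ITGA6, with 173 Control cells); the cause was not tested. The count was 0 in all other settings and comparisons. Cells with any marker were 96.5%, 97.0%, 97.0% and 95.7% in Drug_Radiation, Drug, Radiation and Control when thinned to 5000 UMIs, and 99.8%, 99.7%, 95.9% and 71.0% when not thinned, where depth per cell sets the share. Of 650 further values of single markers 550 moved by less than their counting interval and 100 by more. With TMM scaling the genes past 2-fold in Drug against Control were 63 higher and 179 lower, against 477 and 130 with CPM, and the all-gene median was 0.10 in place of 0.50. The split was 105 and 154 in place of 281 and 127 for Drug_Radiation against Control, 73 and 58 in place of 105 and 42 for Radiation against Control, 38 and 93 in place of 60 and 84 for Drug_Radiation against Radiation, and 26 and 0 in place of 15 and 7 for Drug_Radiation against Drug. MYC, SOX9, ITGA6 and ALDH1A3 had ratios below 0 in Drug against Control with that scaling. No paired analysis was possible because each group is 1 library. CD24, PROM1 and ABCG2 are limited by counts: under 60 UMIs each in Radiation and Control.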
